A study of Mus musculus with 58 samples.

Results

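The transcripts described here encode the enzymes of lower glycolysis and lactate dehydrogenase in the mouse retina: Gapdh, Pgk1, Pgam1, Eno1, Eno2, Pkm, Ldha and Ldhb. They were taken by gene symbol from a table of read counts, in which all 8 were found among 52459 symbols. All 8 passed the filter on low counts in each test. Total RNA depleted of ribosomal RNA was sequenced from 58 single retinas of male mice 4 months old, kept under 12 h of light and 12 h of dark. The control group held 30 retinas of wild-type C57BL/6 littermates. The diabetic group held 28 retinas of heterozygous Ins2Akita mice, in which misfolded insulin destroys the beta cells and blood glucose is high. Retinas were taken at ZT1, ZT5, ZT9, ZT13, ZT17 and ZT21, where ZT (zeitgeber time) counts hours from lights on and lights go off at ZT12. The numbers of libraries at these times were 5, 6, 5, 5, 5 and 4 in control and 5, 5, 5, 4, 4 and 5 in diabetic mice. All mice of both groups were perfused, and the night retinas were dissected under dim red light, so that hour and dissection light cannot be told apart.

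Glycolysis splits glucose in an upper part that spends ATP and a lower part that earns it back. GAPDH and phosphoglycerate kinase carry out the first oxidation and the first ATP-yielding step, phosphoglycerate mutase and enolase rearrange and dehydrate the product, and pyruvate kinase makes pyruvate with the second ATP. Lactate dehydrogenase then turns pyruvate into lactate and restores the NAD+ that GAPDH needs. Its A subunit (Ldha) favours lactate formation, while the B subunit (Ldhb) is the form typical of tissues that burn lactate. The retina is known for aerobic glycolysis, in which most of its glucose leaves as lactate even when oxygen is at hand, and photoreceptors are held to be the main site. Several of these genes are known targets of the oxygen-sensing factor HIF1, which binds the letters ACGTG or GCGTG in DNA.

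The gene starts are shown for 3 members because these carry the contrasts reported below: Ldha and Ldhb, which encode subunits of the same enzyme, and Pgk1, which had the largest relative daily swing. Each line holds 250 bases before and 50 bases after the annotated start, 5′ to 3′ on the gene's own strand, from RefSeq on GRCm38.p6. Capitals mark ACGTG and GCGTG, read on both strands, so that CACGT and CACGC are the same letters on the other strand.
Ldha, chr7:46845554-46845853, plus strand: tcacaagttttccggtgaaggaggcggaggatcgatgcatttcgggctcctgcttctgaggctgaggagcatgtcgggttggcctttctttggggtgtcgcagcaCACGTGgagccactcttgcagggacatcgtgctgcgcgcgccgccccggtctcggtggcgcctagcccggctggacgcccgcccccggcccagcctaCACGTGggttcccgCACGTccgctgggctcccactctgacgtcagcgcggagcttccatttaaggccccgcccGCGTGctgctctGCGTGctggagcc
Pgk1, chrX:106186850-106187149, plus strand: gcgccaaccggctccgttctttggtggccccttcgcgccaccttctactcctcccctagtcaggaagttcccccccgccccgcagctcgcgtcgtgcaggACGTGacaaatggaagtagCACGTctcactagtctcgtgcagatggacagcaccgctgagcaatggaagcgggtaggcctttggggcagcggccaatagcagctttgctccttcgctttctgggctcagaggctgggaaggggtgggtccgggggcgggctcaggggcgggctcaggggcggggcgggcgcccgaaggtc
Ldhb, chr6:142507908-142508207, minus strand: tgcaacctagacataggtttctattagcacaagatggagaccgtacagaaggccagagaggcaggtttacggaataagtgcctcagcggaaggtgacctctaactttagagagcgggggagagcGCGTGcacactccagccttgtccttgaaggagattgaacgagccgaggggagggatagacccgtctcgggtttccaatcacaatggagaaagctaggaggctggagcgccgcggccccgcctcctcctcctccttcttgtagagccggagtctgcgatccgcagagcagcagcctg

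The Ldha window held ACGTG at 5 places when both strands and overlaps are counted, since each of its 2 copies of CACGTG, which reads the same on both strands and is the E-box letter string bound by clock and Myc family factors, counts on each strand. The Pgk1 window held ACGTG at 2 places and no GCGTG. The Ldhb window held 1 GCGTG and no ACGTG. Over all members, 12 annotated starts were matched, and ACGTG stood in 5 of the 12, 1 each of Gapdh, Pgk1, Pgam1, Pkm and Ldha, while GCGTG stood in 8 of the 12, from 5 genes. The windows of Eno1 starts 2 and 3 overlap and share the same GCGTG sites, so the 8 are not all separate. Of 32851 such windows in the table, 19.6% held ACGTG, 32.4% GCGTG and 7.15% CACGTG, and CACGTG was found at Ldha alone among the members. The photoreceptor letter string GGATTA stood at the other annotated start of Ldha and at no other member, against 7.06% of all windows. These are letter matches, and no binding was measured.

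The members lay on different chromosomes except Gapdh, Eno2 and Ldhb, all on chromosome 6. On the Gencode M21 annotation of GRCm38, Gapdh spanned bases 125161715 to 125166467 (minus strand), Eno2 bases 124760053 to 124769673 (minus strand) and Ldhb bases 142490249 to 142507957 (minus strand). Pgk1 lay on chromosome X at 106187100 to 106203699 (plus strand), Pgam1 on chromosome 19 at 41911923 to 41918660 (plus strand) and Eno1 on chromosome 4 at 150236721 to 150248879 (plus strand). Pkm lay on chromosome 9 at 59656368 to 59679375 (plus strand) and Ldha on chromosome 7 at 46841475 to 46855627 (plus strand). Exons of Gapdh overlap those of Iffo1 on the opposite strand (mean count 970.7). The strand setting of the counting is not given in the sources used here, so reads of the 2 genes in that stretch may not be told apart. Pkm overlaps Gm49759 on the same strand. Processed copies of the members held few reads, the highest being Eno1b with a median of 13.5 counts and at most 29.

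Total counts per library ran from 7773117 to 22147398 with a median of 15406440.5, and the members drew 0.412% to 0.646% of them in control and 0.424% to 0.585% in diabetic retinas. The lowest raw count of a member in any library was 564 (Pgam1), for which counting error alone is 4.21%, and all 113 pairs of replicates differed by more than sampling noise (lowest chi-square over degrees of freedom 1.94). The retina label held up: rod, cone, Muller glia, bipolar, amacrine and ganglion cell markers were all well above 0, 4 of 6 blood markers had a median of 0, and skeletal muscle markers summed to at most 140.7 normalized counts. Lens markers stood apart in 3 control libraries (ZT1 replicate 6, ZT17 replicate 5 and ZT21 replicate 2), at 2220 to 3365 CPM (counts scaled to equal library totals) against 14.05 to 96.11 in the other 55, so the counts of called members below were also made without these 3. Pigment epithelium markers varied from 372.1 to 4971.8 normalized counts. In bulk tissue, fewer cells of a type and less RNA per cell cannot be told apart.

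Compared per kilobase of the principal transcript, so that genes of different length can be set side by side, the 8 members formed 2 tiers. In control retinas the level was 11553 ± 2067 normalized counts per kilobase for Pkm (SD, n = 30), 10014 ± 1874 for Gapdh, 6110 ± 900 for Ldha, 5191 ± 634 for Eno1 and 2438 ± 322 for Eno2. The lower tier held Ldhb at 886.0 ± 93.8, Pgk1 at 862.0 ± 172.3 and Pgam1 at 684.6 ± 104.0. The order was the same in diabetic retinas and when lengths of all annotated exons were used. The SDs between libraries overlap for Pkm and Gapdh, Ldha and Eno1, Ldhb and Pgk1, and Pgk1 and Pgam1. Within libraries, Pkm was above Gapdh and Ldha above Eno1 in 58 of 58, Pgk1 above Pgam1 in 56 and Ldhb above Pgk1 in 42. Of the pairs of isozymes, Ldha far exceeded Ldhb, and Eno1, the enolase of most tissues, exceeded Eno2, the neuronal enolase.

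Genes of a list of tissue-restricted isozymes and related enzymes (Gapdhs, Pgk2, Pgam2, Eno3, Eno4, Pklr, Ldhc, Ldhal6b, Bpgm and Ldhd) were scarce: 5 of 10 passed the filter on low counts. One call was made among them in any of the comparisons between genotypes or between time points, Eno4, which was lower at ZT21 than at ZT9 in diabetic retinas (log2 fold change -0.72, SE 0.21, edgeR adjusted p = 0.035).

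**Figure D1:**
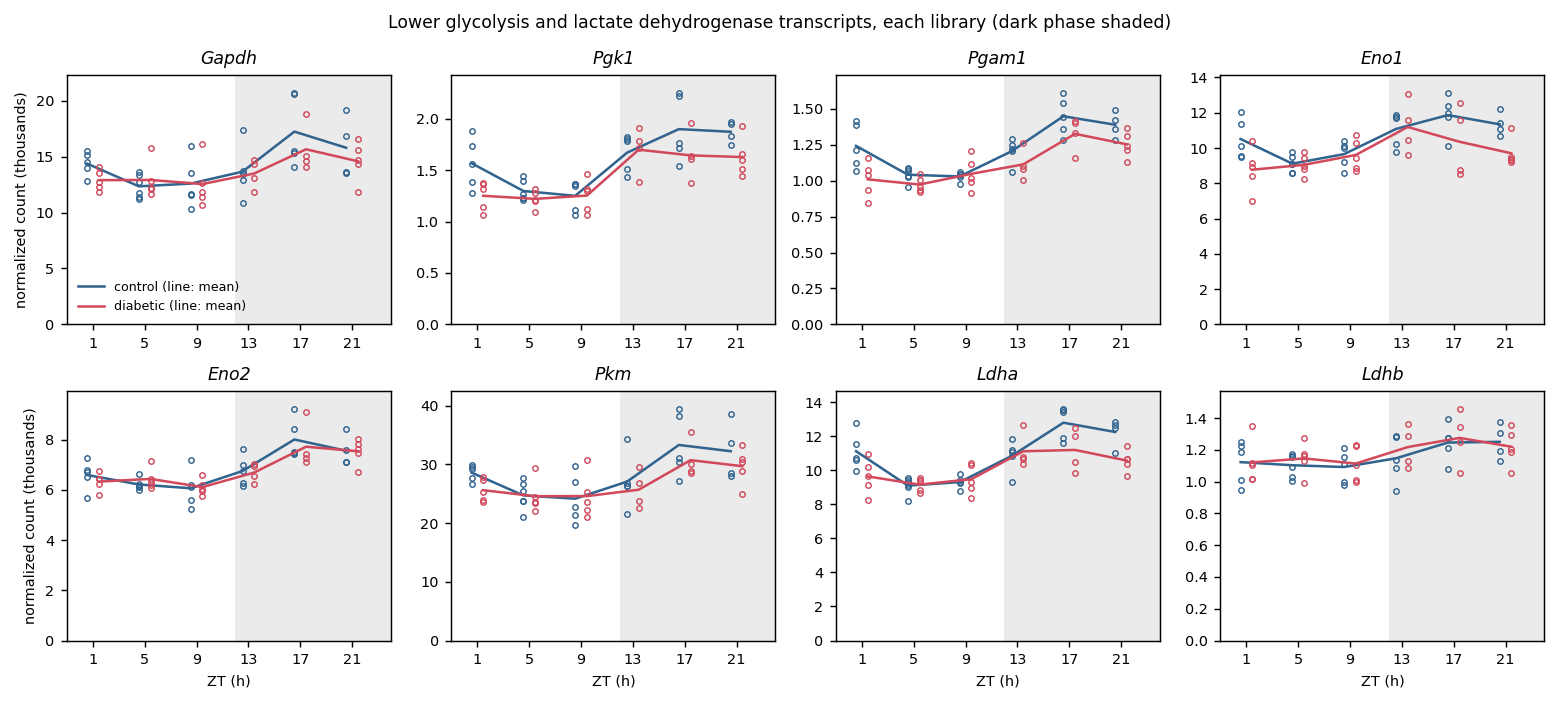
Normalized counts of the 8 members against ZT in hours, 1 panel per gene, with 1 circle per library, lines through the group means and the dark phase shaded. Control means were lowest at ZT5 or ZT9 and highest at ZT17 for all but Ldhb, whose highest mean lay at ZT21 and was 1.145 times its lowest. Ldha at ZT17 ran from 11571.6 to 13579.5 in control and from 9841.1 to 12477.0 in diabetic retinas.

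The first question was whether the members differ between night and day. Normalized counts (read counts divided by DESeq2 size factors) were compared between ZT17 and ZT5, in the middle of the dark and of the light phase, and the test was the edgeR quasi-likelihood test with Benjamini-Hochberg adjustment over 18814 genes. In control retinas 7 of the 8 members were called, all but Ldhb and all higher at ZT17, against 15.3% of all genes in either direction (1507 higher and 1374 lower). In diabetic retinas 4 of the 8 were called, all higher (Pgk1, Pgam1, Eno2 and Ldha), against 7.48% of all genes (733 higher and 675 lower). The median log2 fold change of the members was 0.45 in control and 0.28 in diabetic retinas, against -0.018 and -0.0073 over all genes. DESeq2 called the same numbers, 7 and 4.

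Ldha had the smallest p of the members in control retinas. In control retinas its normalized counts at ZT17 were 11571.6, 11863.6, 13390.0, 13539.6 and 13579.5, and at ZT5 the 6 libraries ran from 8195.6 through a median of 9212.3 to 9527.1. Every ZT17 library lay above every ZT5 library, and the log2 fold change was 0.49 (SE 0.07, edgeR adjusted p = 1.1e-06). In diabetic retinas the ZT17 counts were 9841.1, 10458.7, 11981.1 and 12477.0, and the ZT5 counts were 8637.8, 8823.1, 9341.1, 9438.8 and 9525.8. These groups did not overlap either, and the log2 fold change was 0.29 (SE 0.08, adjusted p = 0.012).

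Pgk1, the first ATP-yielding enzyme, had the largest fold change in control retinas. Its counts at ZT17 were 1542.2, 1713.2, 1768.2, 2219.3 and 2249.3, against 1209.8, a median of 1252.7 and 1441.9 at ZT5, a log2 fold change of 0.55 (SE 0.10, adjusted p = 9.9e-05). In diabetic retinas the counts were 1371.9, 1611.2, 1636.0 and 1953.6 at ZT17 and 1092.4, 1202.6, 1212.0, 1282.0 and 1311.7 at ZT5, a log2 fold change of 0.43 (SE 0.11, adjusted p = 0.0084). The groups were apart in both genotypes.

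Pgam1, the mutase between Pgk1 and the enolases, gave 0.48 (SE 0.07, adjusted p = 7.4e-06) in control and 0.44 (SE 0.08, adjusted p = 2.2e-04) in diabetic retinas on the log2 scale, with no overlap in either genotype. Eno2 rose by 0.37 in control retinas (SE 0.07, adjusted p = 2.6e-04) and by 0.26 in diabetic retinas (SE 0.08, adjusted p = 0.028). Eno1 rose by 0.38 in control retinas (SE 0.09, adjusted p = 0.0019), and its log2 fold change in diabetic retinas was 0.19 (SE 0.10, adjusted p = 0.23).

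Gapdh and Pkm, the most abundant members, were uneven between the control libraries of ZT17. Gapdh counts at ZT17 in control retinas were 14090.0, 15331.0, 15502.4, 20590.4 and 20690.7, the upper 2 libraries well above the other 3. Pkm split in the same way, into 27250.7, 30433.0 and 31144.4 against 38323.0 and 39393.9. Against ZT5 the log2 fold change was 0.48 for Gapdh (SE 0.11, adjusted p = 0.0028) and 0.43 for Pkm (SE 0.11, adjusted p = 0.0044) in control retinas. In diabetic retinas the values were 0.28 (SE 0.13, adjusted p = 0.19) and 0.32 (SE 0.12, adjusted p = 0.089).

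Ldhb did not pass the test in either genotype. Its counts in control retinas were 1076.5, 1211.1, 1272.4, 1276.5 and 1393.0 at ZT17 and 1002.6 to 1176.7 at ZT5, which overlap, and the log2 fold change was 0.18 (SE 0.09, adjusted p = 0.17). In diabetic retinas it was 0.15 (SE 0.10, adjusted p = 0.38).

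Counted by library values alone, the ZT17 and ZT5 groups were apart and higher at ZT17 for 6 of the 8 members in control retinas, against 4.35% of all genes in that direction, and for 3 of 8 in diabetic retinas, against 3.43%. Without the 3 lens-rich libraries the calls numbered 7 and 4. Pigment epithelium markers moved with the comparison: 4 of the 8 were called higher at ZT17 in control retinas, where their median sum went from 1169.0 to 2432.6 normalized counts, and 5 of 8 in diabetic retinas, where it went from 499.7 to 2004.6. With the summed markers as a covariate, chosen after seeing the data, 7 members were called in control retinas and 1 in diabetic retinas, Pgam1 (log2 fold change 0.35, adjusted p = 0.049). Without diabetic ZT17 replicate 1, or without replicate 3 of that group, 2 members were called in diabetic retinas. Of the neuronal and glial lists, 5 of 8 bipolar, 3 of 8 Muller glia and 1 of 8 amacrine markers were called higher at ZT17 in control retinas. Of 8 rod and of 8 cone markers 0 were called higher and 2 lower. In diabetic retinas 3 bipolar and 1 Muller glia markers were called higher, and 2 rod and 1 cone markers lower. Over all genes 15.3% were called in control and 7.48% in diabetic retinas, in either direction. The part of these cell types in the members' values was not tested.

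At ZT21 against ZT9, the same distance in time and different libraries, 5 of 8 members were called in control retinas, all higher at ZT21, against 2.33% of all genes in either direction. These were Pgk1 (log2 fold change 0.58, SE 0.11), Pgam1 (0.43, SE 0.08), Pkm (0.42, SE 0.12), Ldha (0.40, SE 0.08) and Eno2 (0.32, SE 0.08), with edgeR adjusted p-values from 7.4e-04 to 0.045. Gapdh was at 0.33 (SE 0.13, adjusted p = 0.19), Eno1 at 0.23 (SE 0.10, adjusted p = 0.24) and Ldhb at 0.20 (SE 0.10, adjusted p = 0.37). In diabetic retinas 3 of 8 were called, all higher, against 5.09% of all genes: Pgk1 (0.37, SE 0.10), Eno2 (0.30, SE 0.07) and Pgam1 (0.26, SE 0.08), with adjusted p-values from 0.0084 to 0.039. Ldha was at 0.16 there (SE 0.07, adjusted p = 0.23) and Eno1 at 0.013 (SE 0.09, adjusted p = 0.96), with Gapdh at 0.22, Pkm at 0.27 and Ldhb at 0.13. The groups were apart and higher at ZT21 for 4 members in control and 1 in diabetic retinas, against 3.12% and 2.49% of all genes in that direction. Of the markers, 5 of 8 bipolar and 0 of 8 pigment epithelium genes were called higher in control and 4 and 1 in diabetic retinas. Without control ZT21 replicate 3 or 4 or ZT9 replicate 3, 3 members were called in control retinas. Without diabetic ZT9 replicate 5 or ZT21 replicate 1, 1 was called in diabetic retinas, as with the pigment epithelium covariate.

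Across the change from the start of the day to the start of the night, ZT13 against ZT1, no member was called in control retinas by edgeR or DESeq2 and none had an unadjusted p under 0.05, while 0.803% of all genes were called in either direction. In diabetic retinas 2 of 8 were called, both higher at ZT13, against 1.38% of all genes in either direction. They were Pgk1, with 1389.0, 1717.9, 1782.1 and 1905.1 counts at ZT13 against 1065.4, 1139.6, 1311.9, 1361.1 and 1372.4 at ZT1 (log2 fold change 0.44, SE 0.11, adjusted p = 0.025), and Eno1 (0.35, SE 0.10, adjusted p = 0.0495). The other 6 members ranged from 0.0010 (Pkm) to 0.20 (Ldha). Both calls were lost where single libraries were left out, with log2 fold changes from 0.3796 to 0.5258 for Pgk1 and from 0.2657 to 0.4193 for Eno1: without diabetic ZT13 replicate 1, 3 or 5 or diabetic ZT1 replicate 4 or 5, 0 members were called, as with the pigment epithelium covariate, and without the 3 lens-rich libraries 1 was called. Pigment epithelium markers moved with the comparison, with 5 of 8 called higher at ZT13 in diabetic retinas (median log2 fold change 1.76) and 3 of 8 in control retinas (0.75), as did bipolar markers, with 3 of 8 and 0 of 8. The groups were apart and higher at ZT13 for 1 member in diabetic retinas (Pgk1) and for 0 in control retinas, against 2.33% and 1.21% of all genes in that direction.

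The daily change was then compared between the genotypes. For ZT17 against ZT5 the change of each of the 8 members was smaller in diabetic than in control retinas, with differences of -0.21 to -0.023 on the log2 scale, and none passed the edgeR test of the difference, as for 0 of all 18814 genes (0%). None of the 8 had an unadjusted p under 0.05, and 707 genes did. For ZT21 against ZT9 the differences ran from -0.24 to -0.015, 0 members and 0% of genes passed, and 1 member, Ldha, had an unadjusted p under 0.05, as did 465 genes. For ZT13 against ZT1 the differences had the other sign, 0.044 to 0.35, with 3 members of unadjusted p under 0.05 among 530 genes, and again 0 members and 0% of genes passed. DESeq2 called 0 members and 1, 3 and 0 genes in the 3 comparisons in that order. For Ldha the differences were -0.20 (SE 0.10, unadjusted p = 0.056), -0.24 (SE 0.11, unadjusted p = 0.028) and 0.24 (SE 0.11, unadjusted p = 0.028).

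**Figure D2:**
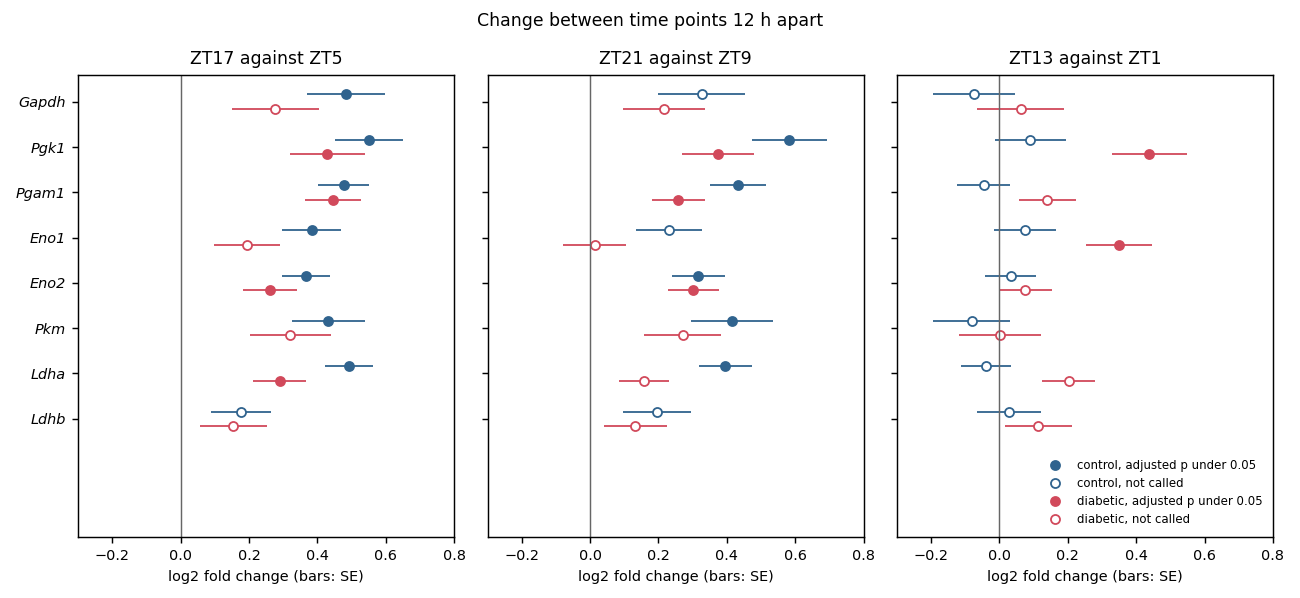
Log2 fold change with its SE between time points 12 h apart, for each member in control and diabetic retinas; filled circles passed the edgeR test at an adjusted p under 0.05. At ZT17 against ZT5, 7 control and 4 diabetic points are filled, and at ZT13 against ZT1 the 2 filled points, Pgk1 and Eno1, are diabetic.

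Rhythm over the whole day was tested with a rank test written after empirical JTK_CYCLE, which sets each series against 30 waveforms of a 24 h period and against shuffled series. A gene was called rhythmic at an unadjusted p under 0.05 where its highest library also exceeded its lowest by more than 25%. In control retinas 7 of the 8 members were rhythmic, against 21.8% of the 19086 expressed genes, and in diabetic retinas 6 of 8, against 23.9% of 19145. Ldhb was not called by the rank permutation test in either genotype (p = 0.066 in control, 0.19 in diabetic retinas) and Eno1 passed in control (p = 1.9e-04) and not in diabetic retinas (p = 0.091). Adjusted over all expressed genes, the rank test gave p-values of at most 0.035 for the 7 members in control retinas, and of 0.11 for Gapdh and 0.055 for Pkm in diabetic retinas. With the fold taken between time point means instead of libraries, 3 members were called in diabetic retinas. An edgeR fit of a 24 h cosine with adjusted p under 0.05 called 7 and 6, against 11.0% and 12.4% of genes. The 6 in diabetic retinas were not those of the rank test: Eno1 was called (adjusted p = 0.031) and Gapdh was not (adjusted p = 0.058).

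Acrophases, the fitted peak times from a least squares cosine, lay close together. In control retinas the 7 rhythmic members peaked between ZT17.95 (Eno1, SE 0.63 h) and ZT19.36 (Pkm, SE 0.77 h), in the middle of the dark phase, a window of 4 h (ZT16 to ZT20) that held 35.5% of all rhythmic genes. In diabetic retinas the 6 rhythmic members peaked between ZT16.67 (Ldha, SE 0.78 h) and ZT18.69 (Pkm, SE 0.97 h). All rhythmic members peaked in the dark phase, as did 49.2% of all rhythmic genes in control and 51.9% in diabetic retinas.

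The relative amplitude, the cosine's height as a percentage of the mean, was largest for Pgk1, at 22.2% in control (SE 3.1) and 19.4% in diabetic retinas (SE 3.3). Pgam1 had 18.2% (SE 2.0) and 15.3% (SE 2.5), and Eno2 13.8% (SE 2.3) and 11.4% (SE 2.1). Ldha had 17.8% (SE 1.9) in control and 10.9% (SE 2.3) in diabetic retinas, and Ldhb 7.3% (SE 2.4) and 6.4% (SE 2.8). The values of Pkm were 17.1% and 11.9%, of Gapdh 16.5% and 10.1% and of Eno1 12.8% and 11.0%. All rhythmic genes had a median of 11.1% in control and 10.9% in diabetic retinas.

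In all 8 members the acrophase was earlier and the relative amplitude smaller in diabetic retinas, but the intervals were wide. The acrophase of Ldha differed by -2.28 h (SE 0.87, 95% interval -3.99 to -0.57), that of Pgk1 by -1.89 h (SE 0.84, interval -3.53 to -0.25) and that of Pgam1 by -1.54 h (SE 0.76, interval -3.03 to -0.051), each as diabetic minus control. Eno1 had a difference of -3.42 h (interval -5.88 to -0.96). Its diabetic series was not called by the rank test and was called by the edgeR cosine fit (adjusted p = 0.031). The intervals of the other 4 included 0: Eno2 had -0.14 h (-2.02 to 1.74), Pkm -0.67 h (-3.09 to 1.75), Gapdh -0.89 h (-3.87 to 2.09) and Ldhb -1.61 h (-5.70 to 2.48). The relative amplitude of Ldha differed by -6.94 percentage points (interval -12.7 to -1.19), and the intervals of the other 7 members included 0. Earlier peaks were not particular to the members, and the study reports slightly earlier peaks for rhythmic transcripts in general. Of the upper glycolysis genes rhythmic in both genotypes, all but Pfkfb4 (ZT6.471 and ZT6.481) peaked earlier in diabetic retinas, such as Pfkl (ZT18.83 and ZT16.81). Relative amplitude was smaller there for all but Hk2 and Aldoc. The share of all rhythmic genes with such shifts is not given here.

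A joint edgeR test of both cosine terms between genotypes called 0 of the 8 members, as it called 0% of 18814 genes, with 638 genes at an unadjusted p under 0.05. DESeq2 called 0 members and 0 genes too. The smallest p among the members was that of Ldha (unadjusted p = 0.0020, adjusted p = 0.94), followed by Eno1 (0.020) and Pgk1 (0.046). When the adjustment ran over the genes rhythmic in either genotype alone, the adjusted p of Ldha was 0.46.

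**Figure D3:**
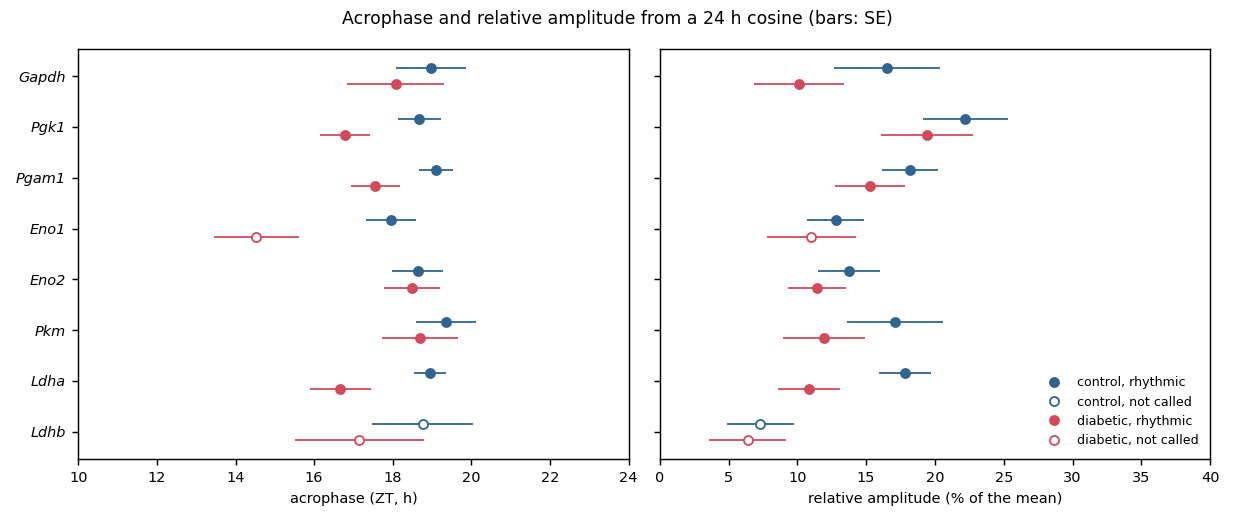
Acrophase (ZT, hours) and relative amplitude (% of the mean) of each member with SE bars from the 24 h cosine, in control and diabetic retinas; filled circles were rhythmic by the rank test. Diabetic points lie to the left of control points for every gene in both panels, for Ldha from ZT18.95 to ZT16.67 and from 17.8% to 10.9%, and the SE bars of several genes overlap.

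The genotypes were next compared in level. Over all time points none of the 8 members was called by edgeR, against 3.04% of 18814 genes, and none by DESeq2. Of the 8 log2 fold changes 7 were below 0, and that of Ldhb was 0.028. The median of the members was -0.082, against 0.0023 over all genes. Medians were -0.0815 for rod, -0.12 for cone and -0.095 for bipolar markers. They were -0.0055 for Muller glia, 0.0018 for amacrine and 0.051 for ganglion cell markers. Lens markers had -4.27, the 3 lens-rich libraries all being control. The part of these tissues in the members' values was not tested. At an unadjusted p under 0.05 there were 2904 genes, 2 members among them. Eno1 (-0.12, SE 0.05, unadjusted p = 0.018, adjusted p = 0.20) and Pgam1 (-0.12, SE 0.05, unadjusted p = 0.024, adjusted p = 0.23) had an unadjusted p under 0.05. Pgk1 was at -0.13 (SE 0.07), Ldha at -0.092 (SE 0.05), Pkm at -0.072 (SE 0.06), Gapdh at -0.061 (SE 0.06) and Eno2 at -0.0084 (SE 0.04). With time of day as an additive term Pgam1 passed (log2 fold change -0.13, adjusted p = 0.016), and no other member did. With a replicate block beside that term Pgam1 (-0.12, adjusted p = 0.022) and Pgk1 (-0.13, adjusted p = 0.030) passed. The 3.04% of all genes belongs to the fit without a time term. The share of all genes called with that term is not given here, so these calls cannot be set against it.

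By library, Pgam1 ran from 954.8 through a median of 1210.1 to 1611.1 in the 30 control retinas and from 842.2 through 1092.9 to 1416.5 in the 28 diabetic retinas. Eno1 ran from 8573.1 through 10191.7 to 13118.3 and from 6999.6 through 9388.6 to 13076.4. Ldha ran from 8195.6 through 10774.8 to 13579.5 and from 8274.4 through 10242.4 to 12657.2. The ranges of the genotypes overlapped over most of their width in each case.

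At single time points no member was called at any of the 6, by edgeR or DESeq2. Of all genes, edgeR called 0.0106% at ZT1, 0.0213% at the next time point (ZT5) and 0.00532% at ZT9. It called 0.170% at ZT17 and 0% both at ZT13 and at ZT21, where 830 and 862 genes had an unadjusted p under 0.05 and DESeq2 called 1 and 8. The signs followed the hour: at ZT1 and ZT17 7 of 8 members and at ZT21 all 8 had log2 fold changes below 0, with medians of -0.18, -0.13 and -0.13, while at ZT5, ZT9 and ZT13 the medians were 0.0033, 0.018 and 0.0015. Over all genes the medians at ZT1, ZT17 and ZT21 were 0.0021, 0.0092 and 0.0002. The 13 upper glycolysis genes had -0.13, -0.087 and -0.11 there, and 0.023, 0.013 and 0.0047 at ZT5, ZT9 and ZT13. The 8 signs come from the same libraries and are not independent. The 3 lens-rich control libraries were of ZT1, ZT17 and ZT21, and medians without them are not given here. At an unadjusted p under 0.05 there were 4 members among 1029 genes at ZT1, 2 among 1665 at ZT17 and 2 among 862 at ZT21, and 0 members at ZT5, ZT9 and ZT13, among 1142, 820 and 830 genes.

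The lowest unadjusted p among the 6 time points was that of Pgam1 at ZT1. Pgam1 had 1069.1, 1125.0, 1215.5, 1390.7 and 1415.2 normalized counts in control and 842.2, 936.6, 1039.1, 1076.1 and 1155.3 in diabetic retinas, a log2 fold change of -0.30 (SE 0.08, unadjusted p = 3.4e-04, adjusted p = 0.35). Pgk1 gave -0.32 (SE 0.10, adjusted p = 0.58), Eno1 -0.26 (SE 0.09, adjusted p = 0.64) and Ldha -0.20 (SE 0.07, adjusted p = 0.66). The upper diabetic libraries of Pgam1 reached into the control range. Pkm was at -0.16 (SE 0.11), Gapdh at -0.15 (SE 0.12), Eno2 at -0.056 (SE 0.07) and Ldhb at 7.9e-05 (SE 0.09).

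**Figure D4:**
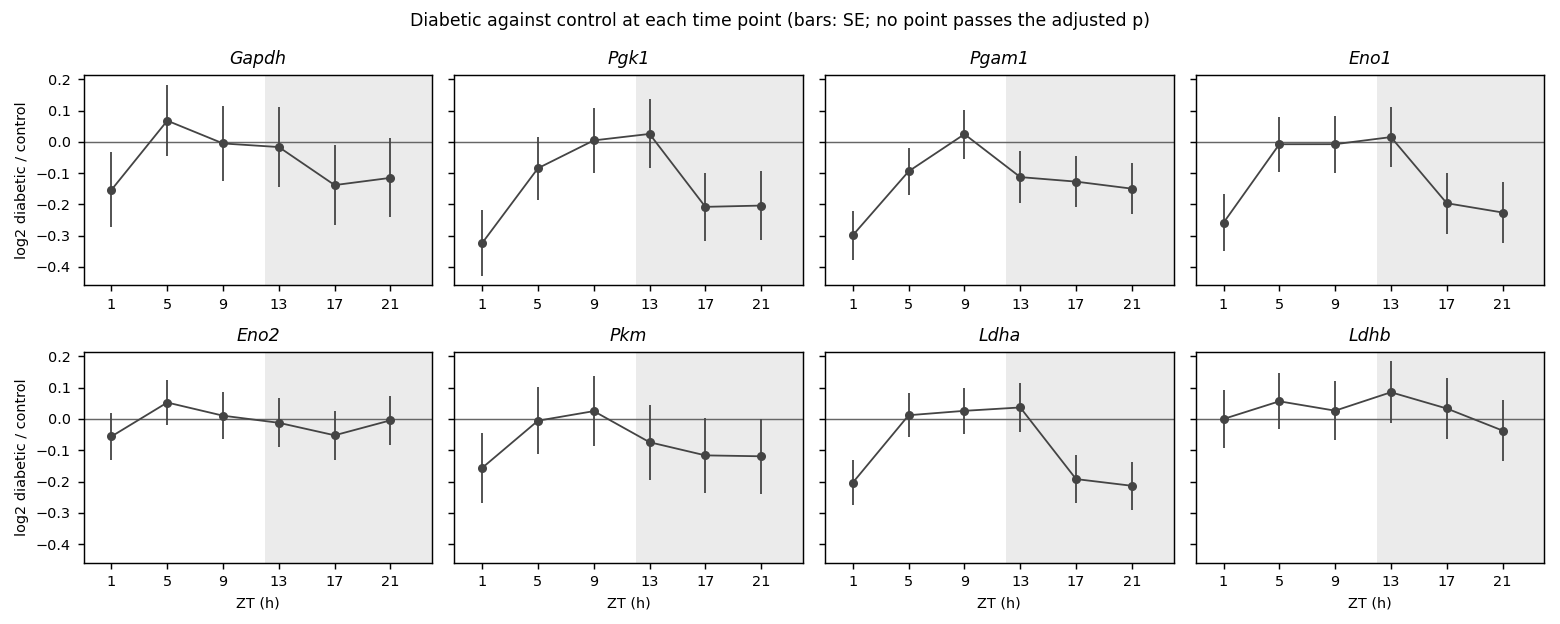
Log2 fold change of diabetic against control retinas with its SE at each ZT (hours), 1 panel per member, dark phase shaded. Points of most members lie below 0 at ZT1, ZT17 and ZT21, down to -0.32 for Pgk1 at ZT1, and near 0 at ZT5 to ZT13, and none passed the adjusted test.

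Ratios of isozymes within a library do not depend on the scaling between libraries. They were not corrected for base composition. The permutations between genotypes shuffled libraries over all time points and replicate numbers, and other gene pairs were not tested as a background. The ratio of Ldha to Ldhb counts, averaged on the log2 scale, was 9.29 in control (log2 3.22 ± 0.17, SD, n = 30) and 8.59 in diabetic retinas (3.10 ± 0.11, n = 28), a log2 difference of -0.11 (2-sided permutation test, p = 0.0035, adjusted p = 0.013 over the 6 ratio tests). The 5 control ratios at ZT17 had a lowest, median and highest value of 9.294, 10.52 and 11.18, and the 6 at ZT5 of 7.80, 8.13 and 9.28, which did not overlap. That log2 difference was 0.32 (exact 2-sided permutation test, p = 0.0043, adjusted p = 0.013). In diabetic retinas the values were 8.23, 8.83 and 9.34 at ZT17 (n = 4) and 7.32, 8.11 and 8.71 at ZT5 (n = 5), and the log2 difference of 0.14 did not pass (exact permutation test, p = 0.079, adjusted p = 0.12). The difference between the 2 genotypes in this daily change of the ratio was not tested.

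The ratio of Eno1 to Eno2 was 1.55 in control and 1.43 in diabetic retinas, a log2 difference of -0.11 (permutation test, p = 0.0088, adjusted p = 0.018). It did not differ between ZT17 and ZT5 beyond the spread of the libraries in control (log2 difference 0.017, exact permutation p = 0.81, adjusted p = 0.81) or in diabetic retinas (-0.081, exact permutation p = 0.52, adjusted p = 0.63). The diabetic value moved with single libraries, to -0.1973 without ZT17 replicate 1 and to -0.03117 without ZT17 replicate 4, and passed the test in neither case. By time point, the diabetic median was highest at ZT13 (1.678) and lowest at ZT17 (1.242), and the control median was highest at ZT1 (1.655) and lowest at ZT17 (1.425).

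**Figure D5:**
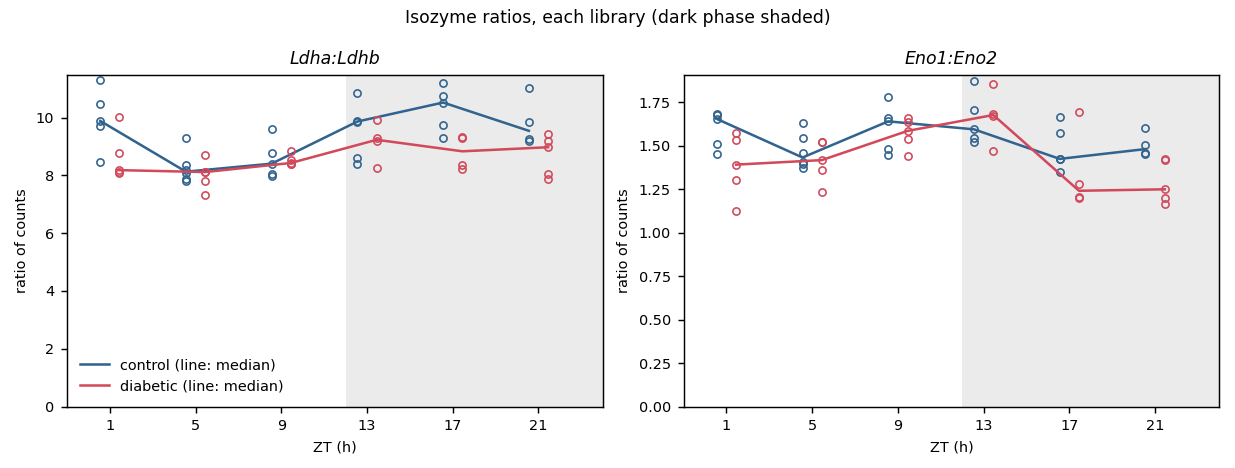
Ratio of read counts of Ldha to Ldhb and of Eno1 to Eno2 in each library against ZT (hours), with lines through the group medians and the dark phase shaded. The control Ldha to Ldhb ratio has medians of 8.127 at ZT5 and 10.52 at ZT17, and the diabetic ratio medians of 8.11 and 8.83.

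The genes around the members in the pathway were counted in the same fits. At ZT17 against ZT5, 15.3% of 18814 genes were called in control retinas (1507 higher and 1374 lower). In diabetic retinas 7.48% were called (733 higher and 675 lower), and between the genotypes over all time points 3.04%. These shares are the background for the counts of each list below. Of 13 upper glycolysis genes, 7 were higher and 1 lower at ZT17 than at ZT5 in control retinas, and 6 higher and 0 lower in diabetic retinas. The smallest p-values belonged to Hk2, the hexokinase that traps glucose (log2 fold change 1.04 in control and 1.09 in diabetic retinas), Pfkl, the liver-type phosphofructokinase (0.65 and 0.51), Tpi1 (0.59 and 0.46) and Aldoa (0.63 and 0.45). None of the 13 was called between the genotypes over all time points. Of 16 genes of glucose, lactate and pyruvate transport and pyruvate dehydrogenase, 5 were higher at ZT17 in control and 3 in diabetic retinas. They included Slc16a3, the lactate exporter MCT4 (1.15 and 0.82), and Slc2a1, the glucose transporter GLUT1 (0.65 and 0.49). Slc16a8, a lactate transporter of the pigment epithelium, was at 1.09 and 2.11, beside the pigment epithelium markers given above.

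Of 14 measured genes of the HIF1 pathway outside glycolysis, 5 were higher at ZT17 in control and 3 in diabetic retinas, among them P4ha1, a collagen prolyl hydroxylase subunit (0.63 and 0.51), and Egln1, the oxygen sensor PHD2 (0.63 and 0.50). Of 8 retinal regulators of glycolytic enzymes, Tigar, a fructose bisphosphatase that slows glycolysis, was higher at ZT17 in control retinas (0.28, adjusted p = 0.0045), as was Ptbp1, a splicing factor known to act on Pkm (0.23, adjusted p = 0.0497), while in diabetic retinas 0 were higher and 1, Nxnl1, was lower. Nxnl1, the gene of the rod-derived cone viability factor, was lower in diabetic retinas over all time points (-0.21, SE 0.03, edgeR adjusted p = 4.8e-06). So were 4 of 8 cone markers and 1 of 8 rod markers, Rom1 (-0.14, edgeR adjusted p = 0.033), against 3.04% of all genes in either direction. Of 6 genes of the retinal clock and its outputs, 4 were higher at ZT17 than at ZT5 in control and 3 in diabetic retinas, and 0 were called between the genotypes over all time points.

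Genes with a pattern most like Ldha were sought among 11237 genes with a mean of at least 100 normalized counts, by Pearson's r over the 12 group means. They were Fam162a (r = 0.974), Slc16a3 (0.973), Pfkl (0.973), Ak4 (0.973) and Gm45441 (0.969). For the mean standardized profile of the members they were Tpi1 (0.993), Drd2 (0.983), Pfkl (0.981), Rnf145 (0.979) and Aldoa (0.976). The 12 points share their libraries between genes, and r is given as a description.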

How the data were processed

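Read counts per gene symbol were deposited by the authors as raw counts, with no normalization, from reads mapped with STAR 2.7.4a to GRCm38.p5 (Gencode M15) and counted with HTSeq 0.11.1. The strand setting is not given in the sources used here. Of 52459 symbols, 15226 had no read in any library. Each library is 1 retina, called a biological replicate in the study's methods. Normalized counts are counts divided by DESeq2 size factors. The tests were edgeR 4.0.16 quasi-likelihood fits (R 4.3.3, TMM, edgeR's filter on low counts), with Benjamini-Hochberg adjustment over all genes tested and calls at an adjusted p under 0.05. DESeq2 1.42.0 was an alternative. The study's rhythm programs were not installed, so the rank test was written anew (1000000 shuffled series, median count above 4) and rhythm differences came from an edgeR cosine model. Ratios were tested by permutation (100000 resamples, or exact within a genotype). Scripts were tested on simulated data. All 8 members were tested in each comparison and are given by value, count or range. Of other lists at most the 4 called genes of smallest p were named, and of like patterns the 5 highest correlations. The members and lists were chosen with earlier results of these data known. Alternatives were other scaling, no filter, GC correction, a replicate block, a time term, and leaving out each library. A pigment epithelium covariate and leaving out the lens-rich libraries or the libraries of 1 time point were added after seeing the data. Gene positions came from Gencode M21 and promoter windows from RefSeq, both on GRCm38.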

Additional observations from a re-analysis of the deposited data

Results flagged for a closer look

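Of 120 groups of 4 to 6 values tested, 6 held a library set apart from the rest of its group by Dixon's criterion, and chance alone flags about 1 in 20 groups. All 6 were the highest of their group. Gapdh in diabetic ZT5 replicate 4 was at 15757.7 normalized counts, with the next library at 12863.2. Eno1 in diabetic ZT21 replicate 1 was at 11126.5, with the next at 9498.4. Eno2 in control ZT5 replicate 5 was at 6642.6, with the next at 6221.1, and in diabetic ZT17 replicate 3 at 9078.1, with the next at 7404.5. Ldha in diabetic ZT13 replicate 5 was at 12657.2, with the next at 10765.5. The ratio of Eno1 to Eno2 in diabetic ZT17 replicate 1 was 1.693, with the next at 1.279. Of 32 tests of a difference between the genotypes in the daily change or rhythm of a member, 0 passed the adjusted edgeR threshold and 7 had an unadjusted p under 0.05.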

How the results depend on the processing

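Member counts over all comparisons kept within 1.5 times the value reported except as follows. For diabetic against control retinas over all time points, 1 member was called with time of day as an additive term and 2, Pgam1 and Pgk1, with a replicate block and that term. The share of all genes called in these fits is not given here. With the pigment epithelium covariate 1 member was called in diabetic retinas at ZT17 against ZT5, 0 at ZT13 against ZT1 and 1 at ZT21 against ZT9. At ZT13 against ZT1 in diabetic retinas 1 was called with no filter on low counts and 1 without the lens-rich libraries. The rank test called 3 in diabetic retinas with the fold of time point means. Leaving out each library in turn gave 3 to 5 members for ZT21 against ZT9 in control retinas, and 2 to 5, 0 to 2 and 1 to 3 for ZT17 against ZT5, ZT13 against ZT1 and ZT21 against ZT9 in diabetic retinas. The log2 difference of the Ldha to Ldhb ratio in diabetic retinas ran from 0.1034 to 0.1675 and passed (adjusted p = 0.043) without diabetic ZT5 replicate 5. That of Eno1 to Eno2 in control retinas ran from -0.02548 to 0.05128 and was -0.00421 without the lens-rich libraries, and in diabetic retinas it ran from -0.1973 to -0.03117. Values near 0 changed sign: Eno2 between genotypes was 0.01023 with the covariate, Eno1 at ZT21 against ZT9 in diabetic retinas -0.05828 with it, and Ldhb between genotypes at ZT1 -0.002747 with DESeq2 size factors, -0.003246 with no filter, -0.002803 in DESeq2 and -0.001529 with the covariate. Without each library in turn these values ran from -0.02732 to 0.009244 for Eno2, from -0.0461 to 0.05316 for Eno1 and from -0.07525 to 0.04269 for Ldhb. The cause of these changes was not tested.

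Same-numbered control and diabetic libraries of a time point were more alike than others: 20 of 26 such pairs correlated above 0.1 (median r 0.265), against 35 of 114 pairs of other numbers (median r -0.0688). The lowest same-numbered r was -0.463, 27 of 52 libraries were most like the one of their own number, and no label says what a number marks, so the samples were not treated as paired. With a replicate block, 5 members were called at ZT17 against ZT5 in diabetic retinas, and the edgeR cosine fit called 7 in each genotype. At the lowest count, 564 reads (Pgam1), counting error was 4.21%.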

Other observations

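With the group means removed, the members did not vary as 1 block over the 58 libraries. Gapdh and Pkm, the most abundant members, were the most alike (Pearson's r = 0.97), and Eno1 and Ldha followed each other too (0.809). Pgk1, in contrast, ran against Gapdh (-0.43) and Pkm (-0.455) and with Eno1 (0.545) and Ldha (0.537). After a correction for GC content in each library these values were 0.812, 0.767, -0.44, -0.291, 0.863 and 0.729 in the same order. Over the 12 group means all pairs were positively correlated, including Gapdh and Pgk1 (0.864). The points share library, depth and base composition between genes, and the values are a description. Genes with group means most like Ldhb were Cplx2 (0.971), Hipk1 (0.97), Btbd10 (0.97), Lrrn2 (0.968) and Apc2 (0.965), named after their values were seen.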
